A study of Mus musculus with 4 samples.

Results

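The heat shock proteins and their partner chaperones form a group of 38 mouse genes chosen by name: the inducible and constitutive HSP70 and HSP110 proteins, HSP90 and its cochaperones, the mitochondrial chaperonin, small heat shock proteins, J-domain proteins, Bag nucleotide exchange factors, subunits of the cytosolic chaperonin TRiC, and the transcription factors Hsf1 and Hsf2. The gene symbols were looked up in tables of 18220 genes in all. Of the members, 38 were in the malignant table, which lists 17992 genes, and 38 were in the non-malignant table, which lists 16349 genes.

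Chaperones bind unfolded proteins and help them to fold, and the HSP70 and HSP90 machines do so in cycles of ATP binding and hydrolysis that J-domain proteins, Bag proteins and cochaperones drive. When proteins unfold, as in heat, hypoxia or oxidative stress, the transcription factor HSF1 is released, binds heat shock elements in DNA and switches on the inducible members. Other members, such as Hspa8 and the TRiC subunits, are made at all times, and tumor cells often carry high levels of HSP90 and HSP70 proteins.

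The cells came from sarcomas of the mouse hind limb grown as allografts, a model in which tumor cells are transplanted into other mice. For all samples the labels give the genotype KrasLSL-G12D/+;Trp53flox/flox and the background strain 129/SvJae, without saying which of them holds for the host. Vehicle mice (n = 2) received intraperitoneal PBS, and digoxin mice (n = 2) received 2 mg/kg digoxin, a cardiac glycoside that was dissolved in DMSO and diluted in PBS, every 24 h for 4 doses. Every tumor was shaken with collagenase, dispase and trypsin for 45 min at 37 °C, and libraries of RNA 3′ ends with unique molecular identifiers (UMIs) were made from single cells. The labels also mention plating for culture after dissociation, and whether the sequenced cells were plated is not clear from them. The mouse is the replicate below. Levels are mean CPM: UMIs of the gene out of 1000000 in a cell, averaged over the cells of a mouse.

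The malignant table held 3976 to 6269 cells per mouse at a median of 46799 to 57658 UMIs per cell, and the non-malignant one had between 3014 and 3344 cells at a median of 15837 to 16671 UMIs. Trp53, which carries conditional alleles in the model, was at 6.56 to 7.71 CPM in malignant and 63.8 to 75.5 CPM in non-malignant cells. Where its 3′ tag lies relative to the deleted exons is not given in the sources used here, so the value may not check the deletion. Non-malignant cells of vehicle replicate 2 stood apart: they had 6.09 CPM of Xist and 86.0 CPM of the Y-linked gene Ddx3y, against 722 to 817 CPM and 1.72 to 2.14 CPM in the other mice. This is the pattern of a male host in vehicle replicate 2 and of female hosts in the other mice. Host sex was thus not balanced between vehicle and digoxin. Malignant cells had 43.1 to 49.3 CPM of Ddx3y in all 4 mice. Cell types carry the names of the deposited annotation. Of these names 2 were poorly matched by their markers. Cells named Epithelial had a sum of 3773 to 4761 CPM over 5 endothelial markers and 7.17 to 19.3 CPM over 4 epithelial ones. Cells named Microglia had no UMI of Sall1, a microglial factor. Of other microglial genes they had 0 to 2.75 CPM of Tmem119 and 14.5 to 31.9 CPM of P2ry12, which was at 26.9 to 57.6 CPM in macrophages. They had 2178 to 2592 CPM of Siglech, a gene of plasmacytoid dendritic cells and also of mouse microglia, which therefore does not tell these apart. Libraries shared 113 cell barcodes.

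Malignant cells carried more of most chaperones than the host cells of the same tumors, and far less of 1 inducible gene, Hspa1a. In 27 of 38 members all 4 malignant values lay above all 4 non-malignant values, and in 5 they lay below. Over all 14445 genes that passed the expression filter in both compartments, 38.4% lay above in this way and 39.6% below. The median log2 difference between malignant and non-malignant cells was 0.61 over the members and -0.02 over all these genes. Against macrophages alone 25 members lay above (42.4% of genes) and 4 below (35.2%), against Fibroblast cells 26 above (28.1%) and 4 below (21.4%), and against the cells named Epithelial 22 above (25.5%) and 5 below (32.4%). Levels are ranked below over 8 populations, the malignant cells and the 7 types with at least 20 cells in every mouse. The deposited macrophage sub-clusters, among them Highly proliferative M2, were not ranked apart from the other macrophages. Whether proliferating host cells share the levels of malignant cells is therefore not shown. How cells were assigned to the 2 tables is not given in the sources used here and may rest on the same expression values, so the difference between compartments is given as a description without a test. A lower mean can come from fewer cells with the RNA or from less RNA per cell, so shares of cells with a UMI are given for Hspa1a, the member with the widest gap against all non-malignant cells. Against Fibroblast cells and the cells named Epithelial the gap of Hspb1 was wider, at 46.4-fold and 128-fold lower in malignant cells, against 12.9-fold and 30.9-fold for Hspa1a.

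**Figure D1:**
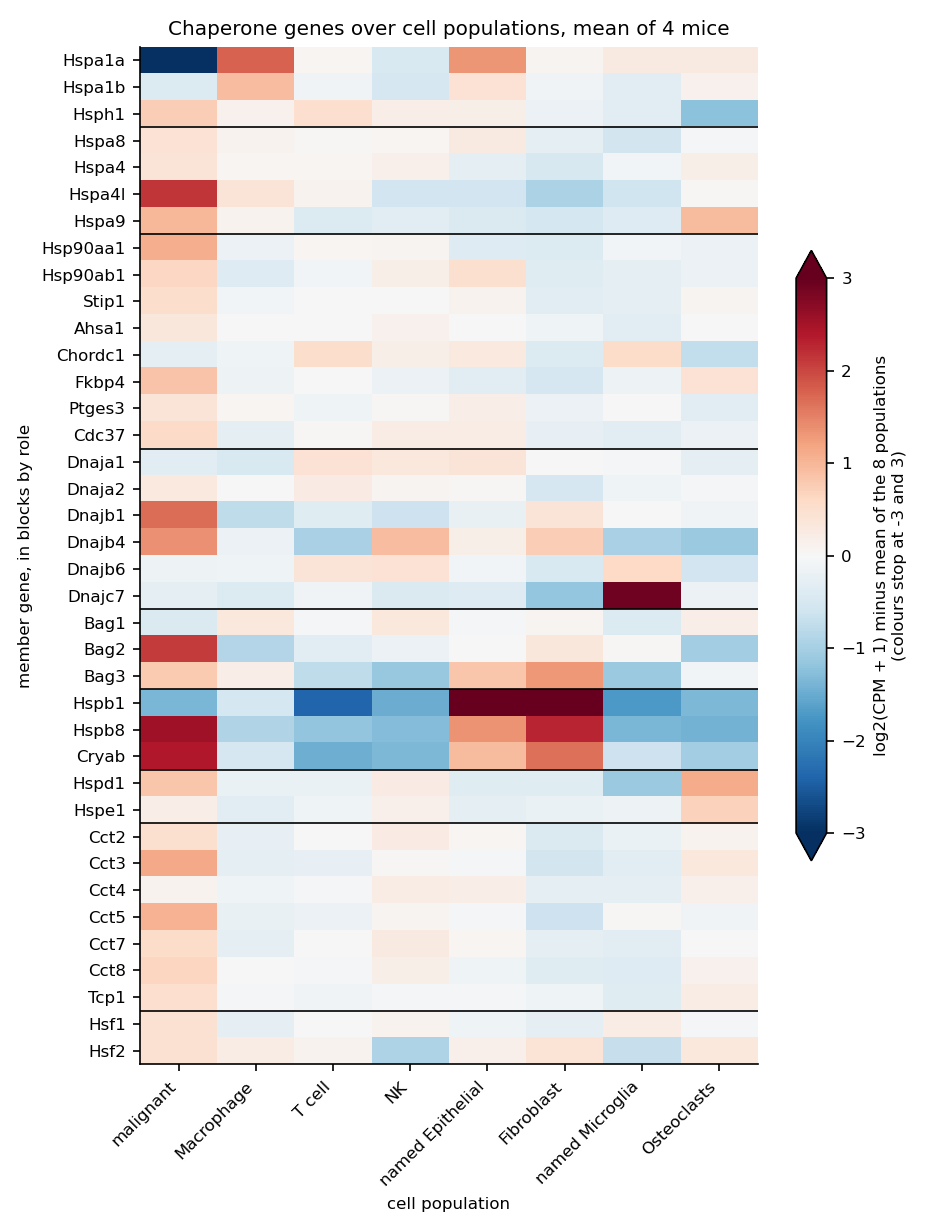
Levels of the 38 members, in rows by role, in malignant cells and 7 deposited types, in columns; the colour gives log2(mean CPM + 1) of 4 mice minus the mean of the 8 populations. The malignant column is red in most rows and deep blue for Hspa1a, Dnajc7 stands out in the cells named Microglia, and Hspb1 in the cells named Epithelial and in Fibroblast cells.

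Hspa1a and Hspa1b encode nearly identical inducible HSP70 proteins and lie beside each other on chromosome 17 (mm10, GENCODE M21 positions 34969190 to 34972156 and 34956436 to 34959238, both on the minus strand). In malignant cells Hspa1a was at 3.78 and 5.63 CPM with vehicle and 3.20 and 4.02 CPM with digoxin. Levels in non-malignant cells were 112 and 194 CPM with vehicle and 140 and 177 CPM with digoxin. No malignant value came near a non-malignant one, and the ratio of non-malignant to malignant was 37.5 (29.8 to 44.1 over the mice). With each cell thinned to 3000 UMIs, 0.781% to 0.974% of malignant and 12.9% to 18.3% of non-malignant cells had a UMI of Hspa1a. Without thinning the shares were 7.59% to 9.41% and 31.7% to 37.3%. Free RNA also gives such UMIs, and its part was not tested. Xist in malignant cells was at 16.4 CPM in vehicle replicate 1 and 16.9 and 15.3 CPM in digoxin replicates 1 and 2. Non-malignant cells of these mice had 722, 817 and 788 CPM of Xist. In vehicle replicate 2 Xist was at 0.462 CPM in malignant and 6.09 CPM in non-malignant cells. Over 4 mice, the macrophage gene C1qa was at 86.2 CPM in malignant cells and 3782 CPM in macrophages. Csf1r, another macrophage gene, was at 14.0 and 581 CPM, and Hspa1a at 4.16 and 175 CPM. Malignant values of Hspa1a may thus hold RNA from macrophages, and the ratios and shares that use them are uncertain.

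Hspa1b differed less between the compartments. It was at 17.8 and 24.4 CPM with vehicle and 25.4 and 30.6 CPM under digoxin in malignant cells. Non-malignant cells had 46.5 and 61.2 CPM with vehicle and 60.4 and 64.7 CPM with digoxin. All malignant values were below the non-malignant ones, by 2.37-fold on average. The balance within the pair was turned around: per UMI of Hspa1a, malignant cells had 3.99 to 7.38 UMIs of Hspa1b and non-malignant cells 0.310 to 0.426. The malignant ratio was 4.71 and 3.99 with vehicle and 7.38 and 6.74 with digoxin, and rests on 4962 UMIs of Hspa1a and 26763 of Hspa1b. C1qa in malignant cells was at 105 and 94.5 CPM with vehicle and 69.7 and 75.3 CPM with digoxin. The part of free RNA in the ratio was not tested. Among the named types with at least 20 cells in every mouse, the ratio over all mice was between 0.361 in macrophages and 0.565 in T cells. In the last 500 bases of their transcripts, no 31-base word of Hspa1a occurred in another annotated gene. Of the words of Hspa1b, 2.98% did, none of them in Hspa1a, so the reads of the pair can be told apart there.

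**Figure D2:**
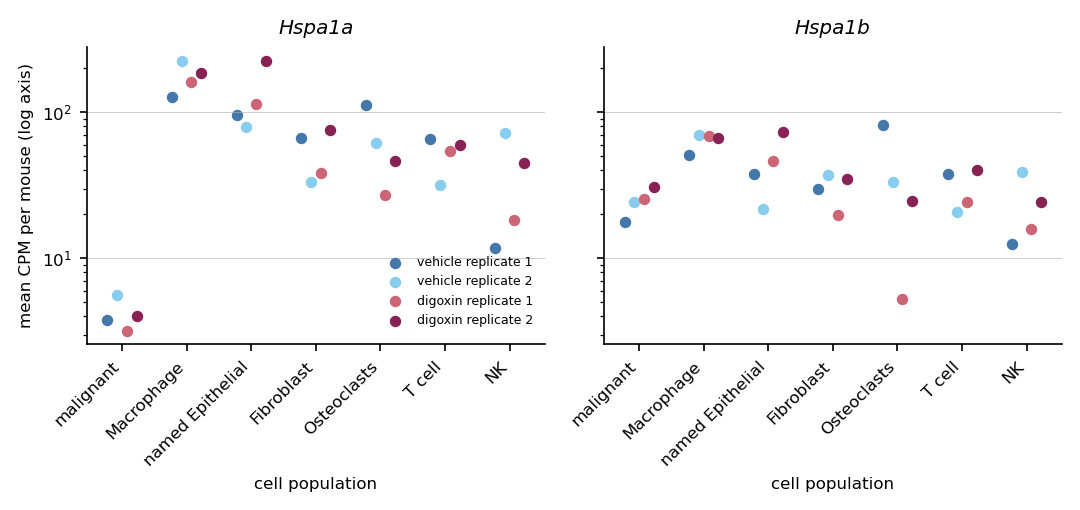
Mean CPM of Hspa1a (left) and Hspa1b (right) per mouse, on a log axis, in malignant cells and 6 types. The 4 malignant points of Hspa1a lie between 3.20 and 5.63 CPM, under those of the 6 types shown (the cells named Microglia, with a mouse at 0, are not drawn on the log axis), whereas those of Hspa1b, at 17.8 to 30.6 CPM, lie among the others.

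The promoters of the pair were nearly identical. Of the 250 bases before their RefSeq starts (GRCm38.p6), 247 (98.8%) were the same in Hspa1a and Hspa1b, and the stretch with a heat shock element was identical. The stretches below are shown because they hold the letters HSF1 is known to bind, with the match in capitals. They are Hspa1a at chr17:34972233-34972280, Hspa1b at chr17:34959315-34959362, Hspb1 at chr5:135887782-135887849, Hsph1 at chr5:149636356-149636375 and Hspe1 at chr1:55088053-55088082, each 5′ to 3′ on the strand of the gene, which is the minus strand for Hspa1a, Hspa1b and Hsph1 and the plus strand for Hspb1 and Hspe1.
Hspa1a: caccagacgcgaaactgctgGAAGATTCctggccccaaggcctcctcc
Hspa1b: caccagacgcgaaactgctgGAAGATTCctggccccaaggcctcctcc
Hspb1: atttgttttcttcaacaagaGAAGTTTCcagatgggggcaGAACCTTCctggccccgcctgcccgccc
Hsph1: gaatctTTCTCGAAggctcg
Hspe1: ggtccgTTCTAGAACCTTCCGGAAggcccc

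The motif searched was GAANNTTC or TTCNNGAA, each its own reverse complement and so found on both strands at once, in windows from 250 bases before to 50 after a start. Windows were at hand for 31 of 38 members. Of these 31, 16 (51.6%) held the motif in at least 1 window, against 17% of 27025 genes and 15.1% of 32851 windows. The longer forms GAANNTTCNNGAA and TTCNNGAANNTTC, which contain the short ones, were in the windows of 5 members (16.1%), Hsph1, Hspd1, Hspe1, Dnajb6 and Chordc1, against 0.662% of genes. The stretch shown for Hspe1 lies in the windows of both Hspe1 and Hspd1, whose genes lie on opposite strands, and inside an annotated exon of Hspd1. The stretch shown for Hsph1 lies inside an annotated exon of Hsph1. A match describes the letters and is not a measured binding site.

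Hsph1, the HSP110 exchange factor for HSP70, showed no such gap. It was at 61.9 and 51.4 CPM with vehicle and 64.0 and 86.3 CPM with digoxin in malignant cells, and at 45.4 and 29.8 CPM with vehicle and 44.1 and 53.5 CPM with digoxin in non-malignant cells. The 2 sets of values overlapped.

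Among the constitutive HSP70 genes, Hspa8, the housekeeping HSC70, was at 2693 and 2558 CPM with vehicle and 2742 and 2917 CPM under digoxin in malignant cells. Its non-malignant values were 1994 and 2143 CPM with vehicle and 2137 and 2339 CPM with digoxin, all below the malignant values. Its level is uncertain, because 85.3% of the words at its 3′ end also occur in another annotated gene. Hspa4l, an HSP110 relative, was 3.67-fold higher in malignant cells (186 against 50.5 CPM over 4 mice), and Hspa9, the mitochondrial HSP70, 1.92-fold (335 against 175 CPM). Neither overlapped between the compartments, and Hspa4 did. Hspa9 in Osteoclasts, at 282 to 366 CPM, overlapped with its malignant range of 306 to 369 CPM.

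Both cytosolic HSP90 genes were higher in malignant cells. Hsp90aa1, the stress-inducible form, was at 1433 and 1165 CPM with vehicle and 1344 and 1672 CPM with digoxin in malignant cells, and at 579 and 497 CPM with vehicle and 586 and 689 CPM with digoxin in non-malignant cells. Every malignant value was above every value of the 7 types. Hsp90ab1, the constitutive form, was at 2999 and 3112 CPM with vehicle and 3135 and 3502 CPM with digoxin in malignant cells, and at 1661 and 1533 CPM with vehicle and 1653 and 1829 CPM with digoxin in non-malignant cells. Here the cells named Epithelial, at 2794 to 3131 CPM, overlapped with the malignant ones. Of the 6 cochaperones, Fkbp4 (2.01-fold), Cdc37, which loads kinases onto HSP90 (1.75-fold), Stip1, which links HSP70 to HSP90 (1.54-fold), and Ptges3 (1.28-fold) were higher in malignant cells without overlap, and Ahsa1 and Chordc1 overlapped. Ahsa1 and Hsp90ab1 share 43.8% and 18.7% of their 3′ words with other genes.

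The J-domain proteins, which hand clients to HSP70, fell into separate patterns. Dnajb1, the partner of inducible HSP70, was at 350 and 368 CPM with vehicle and 295 and 254 CPM under digoxin in malignant cells. Non-malignant cells held 62.1 and 62.3 CPM with vehicle and 60.3 and 66.4 CPM with digoxin. Malignant cells therefore held 5.05-fold more Dnajb1, above all 7 types, the next being Fibroblast cells at 93.5 to 183 CPM. Dnajb4 was 2.90-fold and Dnaja2 1.22-fold higher in malignant cells, and Dnajb6 was slightly lower (139 against 149 CPM), each without overlap. Dnaja1 was highest in T cells, in the cells named Epithelial and in NK cells, at means of 454, 434 and 418 CPM that overlapped among themselves. Of the other populations only the cells named Microglia, at 267 to 393 CPM, reached into this range.

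Dnajc7, a J-domain protein that binds both HSP70 and HSP90, stood out in 1 of these 8 populations. In the cells named Microglia it was at 912 and 915 CPM with vehicle and 725 and 681 CPM with digoxin. The next population, T cells, was at 95.2 to 110 CPM, so no values overlapped. Of the 8 populations Dnajb6 was also highest there, at 222 to 243 CPM, but overlapped with NK cells at 200 to 233 CPM. These cells are few, 31 to 58 per mouse, at a median of 9197 to 10461 UMIs per cell.

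Of the Bag proteins, which release clients from HSP70, Bag2 was 8.38-fold higher in malignant cells (30.5 against 3.64 CPM) and Bag1 was lower (146 against 237 CPM). Bag3, which couples HSP70 to autophagy, was at 61.5 and 70.3 CPM with vehicle and 72.3 and 71.1 CPM under digoxin in malignant cells. The non-malignant values were 44.6 and 39.5 CPM with vehicle and 47.4 and 47.6 CPM with digoxin. Bag3 was higher still in Fibroblast cells, at 87.9 to 125 CPM, above all malignant values.

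The small heat shock proteins, which hold unfolded proteins without ATP, had wide ranges over the populations. Cryab, or alpha-B crystallin, was at 77.5 and 74.9 CPM with vehicle and 99.8 and 105 CPM with digoxin in malignant cells, and at 14.2 and 9.70 CPM with vehicle and 11.5 and 14.4 CPM with digoxin in non-malignant cells. Hspb8, the partner of Bag3, was 10.2-fold higher in malignant cells (54.0 against 5.31 CPM), yet its range in Fibroblast cells, 33.9 to 64.9 CPM, overlapped with the malignant one. Hspb1, or HSP25, went the other way. It was at 0.817 and 2.11 CPM with vehicle and 3.39 and 4.17 CPM with digoxin in malignant cells, and at 15 and 13.6 CPM with vehicle and 15.3 and 21.3 CPM with digoxin in non-malignant cells. Among the 8 populations its level was highest in the cells named Epithelial, at 175 to 502 CPM, next in Fibroblast cells, at 90.8 to 172 CPM, and low in macrophages, at 4.34 to 6.22 CPM. Hspb1 shares 27.0% of its 3′ words with a pseudogene.

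Of the 8 populations, Osteoclasts and malignant cells had the highest levels of the mitochondrial chaperonin. Hspd1, or HSP60, was at 476 and 374 CPM with vehicle and 442 and 565 CPM with digoxin in malignant cells, and at 238 and 208 CPM with vehicle and 216 and 271 CPM with digoxin in non-malignant cells. Osteoclasts, large cells rich in mitochondria, were at 401 to 716 CPM and overlapped with the malignant values. Hspe1, its partner HSP10, was at 502 and 397 CPM with vehicle and 452 and 523 CPM with digoxin in malignant cells, and at 361 and 322 CPM with vehicle and 330 and 371 CPM with digoxin in non-malignant cells. Osteoclasts, at 557 to 704 CPM, lay above all malignant values of Hspe1, although 68.5% of its 3′ words occur in other genes. The share of mitochondrial UMIs in Osteoclasts was a median of 7.64% to 10.8% of a cell, against 5.19% to 5.93% in malignant cells.

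The 7 members from TRiC, the ring that folds actin and tubulin, were all higher in malignant than in pooled non-malignant cells without overlap. Highly proliferative M2 macrophages were not set apart in this comparison. The difference ran from 1.16-fold for Cct4 to 2.66-fold for Cct3. A further subunit of the ring, Cct6a, is not among the members. Cct3 (443 to 564 CPM) and Cct5 (640 to 720 CPM) lay above every type, and Cct4 was level with NK cells, Osteoclasts and the cells named Epithelial. Hsf1 was at 34.7 and 30.5 CPM with vehicle and 34.7 and 36.3 CPM under digoxin in malignant cells. Non-malignant cells had 21.5 and 20.5 CPM with vehicle and 20.5 and 19.6 CPM with digoxin. RNA of the factor was higher in the compartment with less Hspa1a and with more Hsp90aa1 and Dnajb1. Activity of the HSF1 protein was not measured. Hsf2, a related factor, was at 12.1 CPM in malignant and 10.2 CPM in non-malignant cells.

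Macrophages were split by whether they had a UMI of Hspa1a after each cell was thinned to 3000 UMIs, which 14.2%, 20.5%, 16.6% and 16.4% of them had in vehicle replicates 1 and 2 and digoxin replicates 1 and 2. Of the other 37 members, 11 were higher in the cells with the UMI in all 4 mice and 3 were lower. Over 10646 genes, 9.55% were higher and 13.2% lower in all 4 mice. Cells of a mouse are not replicates, and the split was chosen with the data in view, so its values are a description.

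Hspa1b was 24.1-fold higher in the macrophages with a UMI of Hspa1a (20.6 to 27.0 over the mice), and Hspb1 16-fold (9.90 to 23.6). Hsph1 was 1.90-fold higher (1.78 to 2.12), Hsp90aa1 1.52-fold (1.36 to 1.69), Dnajb1 1.44-fold (1.34 to 1.54), Dnaja1 1.41-fold (1.27 to 1.54) and Bag3 1.33-fold (1.11 to 1.65). The constitutive Hspa8 was 1.20-fold higher, and Hspe1, Hsp90ab1 and Hspd1 1.09-fold to 1.11-fold. None of the 7 TRiC members was higher in all mice, and Cct3 and Tcp1 were lower, as was Dnajb6. Of the 8 higher members with a promoter window 7 held the motif above, and of the other 22 with a window 8 did. Among the 7, Hspb1 aside, several are weak or linked cases. Hspa1b has nearly the same promoter as Hspa1a, the gene of the split. Hspd1 and Hspe1 share a stretch, and the match of Bag3 lies after its start. Dnaja1 and Hspd1 held the motif in some but not all of their windows. Dnajb6, lower in all mice, held the longer form. The counts rest on the same split and are a description.

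Early response genes moved with this split. Of 13 immediate early and dissociation genes 8 were higher in all 4 mice, led by Jun at 2.36-fold (2.19 to 3.10), Atf3 at 1.79-fold and Egr1 at 1.75-fold, and 2, Ier3 and Btg2, were lower. Their summed level was 12116 to 15237 CPM in the cells with the UMI and 9902 to 12173 CPM in the others. The part of the dissociation at 37 °C in the pattern was not tested. Summed markers of endothelial cells, which the cells named Epithelial carry, were 7.94 to 18.4 CPM with and 10.2 to 16.1 CPM without the UMI. Skeletal muscle markers summed higher with the UMI in every mouse, at 77.5 against 43.1 and 16.5 against 13.3 CPM with vehicle and 19.7 against 8.15 and 95.6 against 75.8 CPM with digoxin. Macrophage and fibroblast markers were also higher in every mouse, at 16571 to 25185 against 16424 to 23280 CPM and at 122 to 181 against 112 to 167 CPM. Their part in the pattern was not tested. The share of cells with the UMI was 10.6% to 14.7% in the deposited macrophage sub-cluster M1, 19.2% to 24.3% in M2 and 11.1% to 14.1% in Highly proliferative M2. Of 6 genes compared within each of the 3, Hspa1b and Jun were higher in the cells with the UMI in 4 of 4 mice throughout. Hsph1 was higher in 3 of 4 mice in M1 and in 4 of 4 in the other sub-clusters. Dnajb1 and Hsp90aa1 were higher in 3 of 4 mice in Highly proliferative M2 and in 4 of 4 in M1 and M2. Hspb1 was higher in 4 of 4 mice in M1 and M2. In Highly proliferative M2, where 32 to 54 cells per mouse had the UMI, it was at 0 CPM in those cells and at 0 to 1.66 CPM in the others, so a difference was not detectable at this depth.

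**Figure D3:**
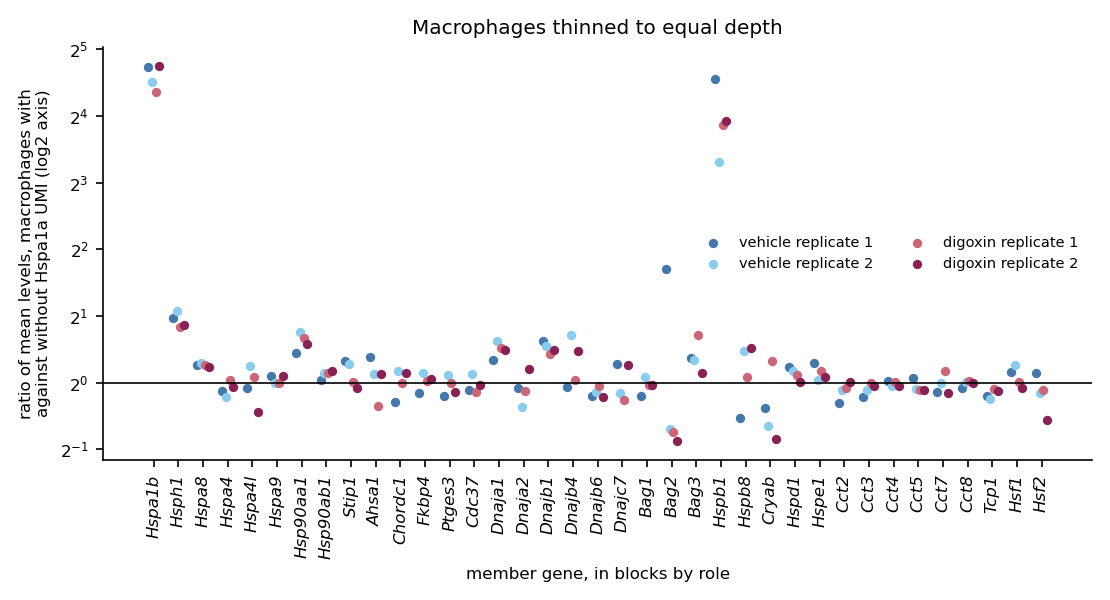
Ratio of the mean level in macrophages with a UMI of Hspa1a to that in macrophages without, per mouse, on a log2 axis, for the other 37 members in blocks by role. The points of Hspa1b (20.6 to 27.0) and Hspb1 (9.90 to 23.6) lie far above 1, those of Hsph1, Hsp90aa1, Dnaja1 and Dnajb1 lie above 1 in all mice, and the TRiC subunits lie around 1.

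Malignant cells were split in the same way by Hspa1b, because Hspa1a was rare there. A UMI of Hspa1b was found in 4.62% to 6.49% of the thinned cells. Of the other 37 members, 8 were higher in those cells in all 4 mice and 4 were lower, against 5.50% and 9.35% of 11980 genes. Hspa1a was 7.10-fold higher (1.80 to 11.5), Hsph1 1.77-fold (1.15 to 2.16), Dnajb4 1.54-fold (1.22 to 1.88), Dnajb1 1.41-fold (1.15 to 1.65), Dnaja1 1.28-fold (1.04 to 1.40), Dnajb6 1.10-fold and Hspa4l 1.06-fold. Hspb1 was at 1.60 against 0.853 and 5.81 against 2.14 CPM with vehicle and at 38.6 against 2.00 and 5.17 against 4.75 CPM with digoxin. The size of its difference thus rests on digoxin replicate 1 and is uncertain. Of the 13 immediate early and dissociation genes 3 were higher in all 4 mice, Jun at 1.10-fold among them, and 1 was lower. Macrophage markers also summed higher in these cells, to 450 to 755 CPM against 337 to 465 CPM, and were higher in each mouse. Their part in the pattern was not tested.

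To ask whether digoxin changed the chaperones, each gene was compared between the 2 digoxin and the 2 vehicle mice within a population. No member passed the threshold, an adjusted p of 0.05 by limma, in any of 12 populations. The share of all genes called was 0.0% of 17138 for the malignant and 0.0% of 14879 for all non-malignant cells. By edgeR no member passed in any population, and by DESeq2 only Cryab did, in malignant cells, where DESeq2 called 0.263% of all genes. At an unadjusted p under 0.05, limma gave 3 of 38 members in malignant cells, against 3.41% of all genes, and 1 of 38 in non-malignant cells, against 3.9%.

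Cryab and Dnajb1 were the malignant members that stood furthest from the spread between mice. Cryab was at 76.2 ± 1.81 CPM with vehicle and 103 ± 3.99 CPM with digoxin (SD, n = 2 each), differing by 0.42 on the log2 scale (SE 0.069, adjusted p of 1.00 by limma). DESeq2 gave 0.48, with an adjusted p of 2.7e-04. Dnajb1 was at 359 ± 13 CPM with vehicle and 275 ± 28.8 CPM with digoxin (SD, n = 2 each), differing by -0.39 on the log2 scale (SE 0.093, adjusted p of 1.00 by limma). Neither gene overlapped between the groups. Hspb1, at 1.46 and 3.78 CPM, had a log2 difference of 1.00 (SE 0.26), which at this level is understated by the added count of 1 CPM.

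Among members at 20 CPM or more, the highest differences in malignant cells after Cryab were Hspa1b at 0.40 (SE 0.17) and Hsph1 at 0.39 (SE 0.16), and the lowest after Dnajb1 were Dnajc7 at 0.00 (SE 0.072) and Bag1 at 0.01 (SE 0.076). Hspa1a, below 20 CPM, had a log2 difference of -0.29 (SE 0.19), with overlapping groups, and of 0.05 without cells marked as doublets. Both digoxin mice lay above both vehicle mice in 8 of 38 members, against 12.8% of all genes, and below in 2, against 16.5%. Macrophage markers in the malignant table summed to 458 and 467 CPM with vehicle and 350 and 355 CPM with digoxin, and fibroblast markers to 5965 and 6251 CPM against 4981 and 4335 CPM. Other markers were higher with digoxin in the thinned malignant cells without a UMI of Hspa1b. Neutrophil markers summed there to 11.0 and 11.7 CPM with vehicle and 34.5 and 20.5 CPM with digoxin, and endothelial markers to 16.8 and 16.3 CPM against 20.9 and 39.7 CPM. Their part in these values was not tested.

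Small positive differences ran through the list in both compartments. In malignant cells 34 of 38 members had a log2 difference above 0, with a median of 0.10, against 47.2% of all genes and a median of -0.01. In non-malignant cells it was 32 of 38 with a median of 0.10, against 43.1% of all genes and a median of -0.02. Single mice were often at the extremes. Of 38 members, 30 in malignant and 33 in non-malignant cells were highest in digoxin replicate 2, as were 4503 of 17138 and 3284 of 14879 genes. In vehicle replicate 2, 27 and 25 members were lowest, as were 5286 and 5398 genes. Digoxin replicate 1 was the highest for 2 members in malignant and for 1 in non-malignant cells. Leaving out digoxin replicate 2 left 27 members above 0 in malignant cells (50.1% of all genes) and 21 in non-malignant cells (44.1%). Leaving out vehicle replicate 2 left 25 (45.5%) and 26 (35.8%). Summed early response genes were lowest in digoxin replicate 2, at 12019 CPM in malignant and 9707 CPM in non-malignant cells, against 14154 to 15864 CPM and 11121 to 11448 CPM in the other mice. The median share of mitochondrial UMIs was 5.80% and 5.93% with vehicle and 5.58% and 5.19% with digoxin in malignant cells, and 4.98% and 6.24% against 4.64% and 4.42% in non-malignant cells. In non-malignant cells, neutrophil markers summed to 164 and 52.8 CPM with vehicle and 1311 and 237 CPM with digoxin, and mast cell markers to 4.05 and 13.8 CPM against 64.7 and 67.1 CPM. Endothelial markers summed there to 129 and 172 CPM with vehicle and 120 and 120 CPM with digoxin. The part of these, and of the sex of the hosts, in the positive differences was not tested.

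**Figure D4:**
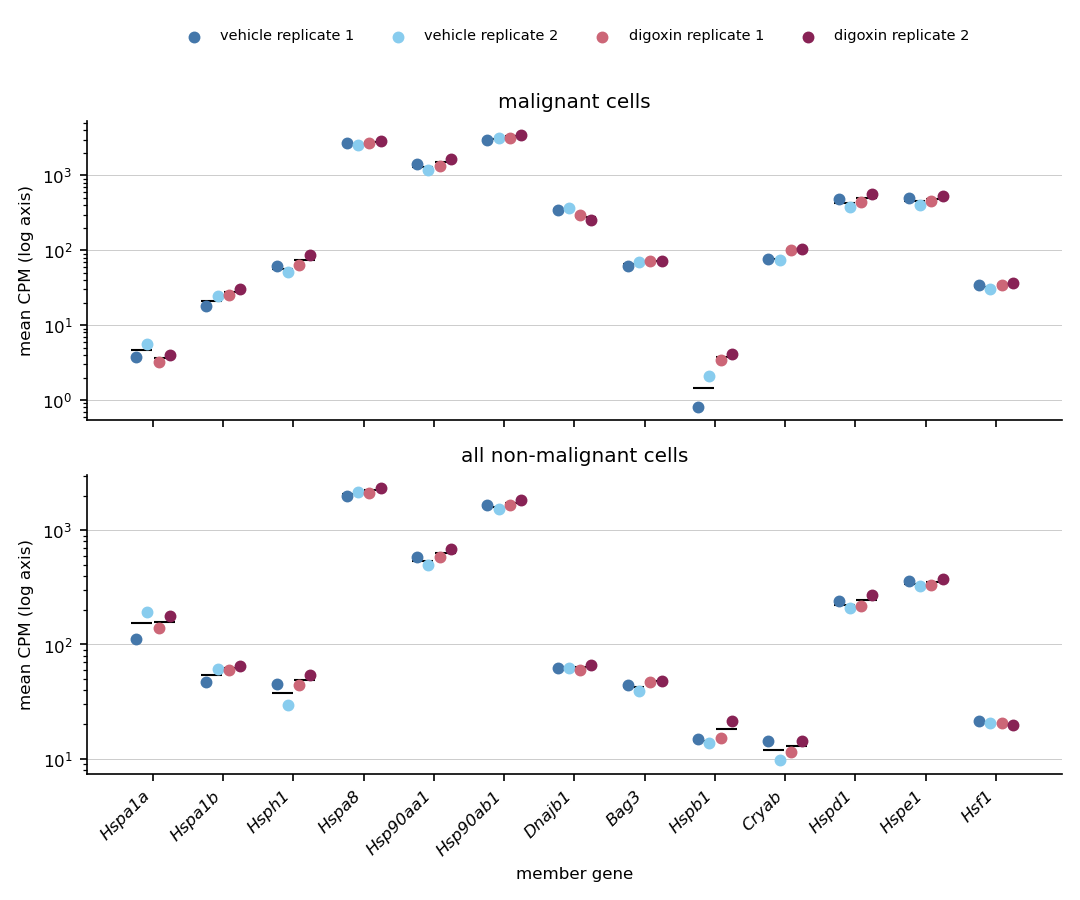
Mean CPM of 13 members per mouse, on a log axis, in malignant (top) and all non-malignant cells (bottom); points are mice and black lines are group means. Cryab lies higher and Dnajb1 lower in both digoxin mice of the malignant panel, and digoxin replicate 2 is the highest point for most genes.

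In all non-malignant cells together, among members at 20 CPM or more, the highest differences were those of Hsph1 at 0.39 (SE 0.22), Hspa4l at 0.29 (SE 0.11) and Hsp90aa1 at 0.24 (SE 0.13), and the lowest those of Dnajc7 at -0.15 (SE 0.095), Hsf1 at -0.06 (SE 0.11) and Cct4 at -0.05 (SE 0.093). Hspa4l was at 44.8 and 45.7 CPM with vehicle and 51.7 and 59.9 CPM with digoxin, without overlap, at a limma adjusted p of 0.975. Both digoxin mice were above both vehicle mice in 6 of 38 members, against 12.4% of all genes, and below in 1, against 20.6%. In macrophages alone, which made up most of these cells, the highest by the same rule was Hsph1 at 0.40 (SE 0.21) and the lowest Dnajc7 at -0.10 (SE 0.11).

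**Figure D5:**
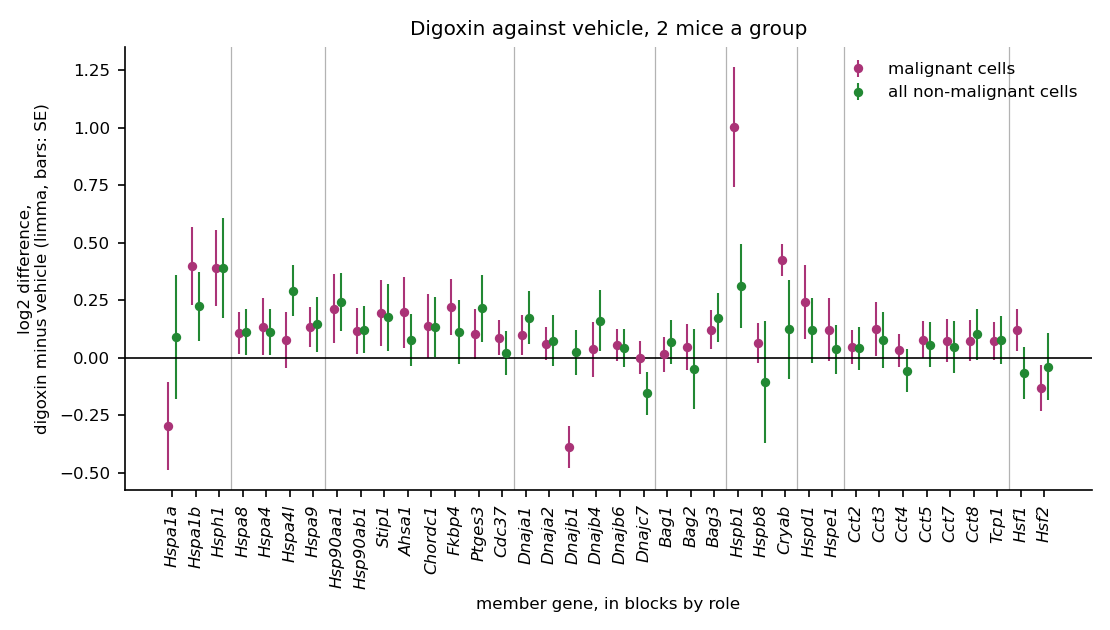
Log2 difference of digoxin minus vehicle, on log2(CPM + 1), with its standard error from limma, for 38 members in malignant and all non-malignant cells. Most points lie slightly above 0, Dnajb1 lies at -0.39 in malignant and 0.02 in non-malignant cells, and Cryab has a short bar at 0.42.

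Within the types, again only members at 20 CPM or more were ranked. In the cells named Epithelial, Hspb1 was at 307 and 175 CPM with vehicle and 357 and 502 CPM with digoxin, and Hspa1a at 95.3 and 78.7 CPM with vehicle and 114 and 225 CPM with digoxin. Hspa1b was at 37.9 and 21.7 CPM with vehicle and 46.0 and 72.8 CPM with digoxin, differing by 0.99 on the log2 scale (SE 0.30, adjusted p of 0.412 by limma), the highest in these cells. None of the 3 overlapped between the groups. Both digoxin mice lay above both vehicle mice in 13 of 38 members, against 17.8% of all genes, and below in 1, against 16.3%, and limma called 0.467% of 10272 genes there but no member. The lowest was Hspb8 at -0.28 (SE 0.33). Without vehicle replicate 1, limma called Hspb1, Hsph1, Hspa1b and Hspa1a, and without vehicle replicate 2 it called Hspa1a, where the lone vehicle mouse is assumed to vary like the digoxin mice, as in the other fits below without a vehicle mouse. Those 2 fits called 3.2% and 2.3% of all genes. Mast cell markers in these cells summed to 59.4 and 151 CPM with vehicle and 2391 and 2395 CPM with digoxin, and macrophage markers to 314 and 629 CPM against 770 and 925 CPM. Their part in the values was not tested.

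In Osteoclasts 25 of 34 members tested had a log2 difference above 0 and 9 below, and the inducible HSP70 pair was among the latter. Of all 7803 genes tested there, 54.5% were above 0. Hspa1a was at 111 and 61.3 CPM with vehicle and 27.2 and 46.5 CPM with digoxin, and Hspa1b at 81.2 and 33.2 CPM with vehicle and 5.26 and 24.8 CPM with digoxin. On the log2 scale Hspa1b differed by -2.06 (SE 0.59, adjusted p of 0.781 by limma), the lowest of the type, and Ahsa1, the highest, by 0.57 (SE 0.19). Without digoxin replicate 2, limma called Hspa1b, at a log2 difference of -3.08. The lone digoxin mouse, with 47 cells and 7 UMIs of Hspa1b, is there assumed to vary like the vehicle mice, and 0.0579% of all genes were called. Both digoxin mice lay above both vehicle mice in 19 of 34 members tested, against 21.6% of 7803 genes, and below in 4, Hspa1a, Hspa1b, Dnajb1 and Dnajb4, against 15.8%. These values rest on few cells, 28 and 152 from vehicle and 47 and 36 from digoxin tumors. The median share of mitochondrial UMIs was 9.48% and 10.8% with vehicle and 7.86% and 7.64% with digoxin, and its part was not tested.

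In the cells named Microglia, Hspa1a rested on 0 and 3 UMIs from vehicle and on 25 and 53 UMIs from digoxin tumors, or 0, 8.90, 28.5 and 207 CPM. The limma adjusted p was 0.504, and no fold is given because 1 vehicle mouse was at 0. Without vehicle replicate 1 limma called Hspa1a and Hsph1 (1.27% of all genes), and without vehicle replicate 2 it called Hspa1a (0.241%). The lowest member there was Ahsa1 at -0.68 (SE 0.29). Dnajc7, the member that marks these cells, differed by -0.38 on the log2 scale (SE 0.14, adjusted p of 0.976 by limma), without overlap.

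At an unadjusted p under 0.05, limma gave 4 of 38 members in the cells named Epithelial (5.77% of all genes), 12 of 34 in Osteoclasts (6.38%), 5 of 31 in the cells named Microglia (4.78%) and 2 of 35 in NK cells (6.28%). The numbers were 1 of 38 in macrophages (4.04%), 0 of 38 in Fibroblast cells (2.97%) and 0 of 34 in T cells (4.28%). Of the sub-clusters, M1 gave 3 of 38 (7.73%), M2 gave 1 of 38 (2.28%) and Highly proliferative M2 gave 2 of 38 (3.94%). In Osteoclasts, of the 12 members 10 were higher with digoxin and 2, Hspa1a and Hspa1b, were lower, and limma called 0.0128% of all genes. In NK cells it called 0.0765% of all genes and no member.

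In the remaining types no ranked member had a limma adjusted p under 0.05. In Fibroblast cells the highest and lowest were Fkbp4 at 0.51 (SE 0.41) and Hspb8 at -0.45 (SE 0.30), in T cells Dnajb1 at 0.33 (SE 0.20) and Hsf1 at -0.62 (SE 0.28), and in NK cells Dnajb4 at 0.39 (SE 0.21) and Hsf1 at -0.19 (SE 0.25). Without vehicle replicate 1, limma called Hspd1, Fkbp4 and Hsp90aa1 in Fibroblast cells, 3 of 38 members against 4.69% of all genes. In the macrophage sub-cluster M1, Hspa1a was at 113 and 115 CPM with vehicle and 173 and 160 CPM with digoxin, differing by 0.55 on the log2 scale (SE 0.098, adjusted p of 0.464 by limma), and in M2 at 172 and 301 CPM with vehicle and 171 and 209 CPM with digoxin, a log2 difference of -0.26 (SE 0.25). In Highly proliferative M2 it was at 60.2 and 78.3 CPM with vehicle and 63.7 and 201 CPM with digoxin. Without vehicle replicate 1, limma called Hsph1 and Hspa1b in M1 (1.77% of all genes), and Hsph1 and Hspa9 in Highly proliferative M2 (2.18%). Whether the effect differs between these sub-clusters was not tested. The median share of mitochondrial UMIs in M1 was 4.23% and 4.63% with vehicle and 3.94% and 3.74% with digoxin, and its part was not tested.

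Whether digoxin acted differently on malignant and non-malignant cells was tested as an interaction. No member passed by limma, which called 0.0% of 14445 genes, and 2 of 38 had an unadjusted p under 0.05, against 3.99% of all genes. Dnajb1 had a log2 effect 0.41 higher in non-malignant than in malignant cells (SE 0.13), and Hspa1a one 0.38 higher (SE 0.13), both at a limma adjusted p of 0.970. The value for Hspa1a rests in part on its malignant difference, which turned direction without cells marked as doublets.

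A list of 60 further chaperone genes, of the endoplasmic reticulum, mitochondria, prefoldin and other cochaperones, showed no call by limma either. Of those tested, 38 of 58 in malignant and 31 of 57 in non-malignant cells had a log2 difference above 0, with medians of 0.04 and 0.02. Of all genes, 47.2% and 43.1% were above 0. Among those at 20 CPM or more, the highest in malignant cells was Sdf2l1, a partner of the reticulum HSP70, at 0.28 (SE 0.20) and the lowest Dnajc10 at -0.13 (SE 0.069). In non-malignant cells, with the same minimum, Fkbp5, an HSP90 cochaperone known to respond to glucocorticoids, was the highest, at 19.3 and 20.7 CPM with vehicle and 28.6 and 39.0 CPM with digoxin, differing by 0.71 on the log2 scale (SE 0.17, adjusted p of 0.975 by limma). The lowest there was Serpinh1, the collagen chaperone HSP47, at -0.26 (SE 0.30). Below that minimum, Hspb7 had a log2 difference of -0.20 (SE 0.11) in malignant cells and of -0.42 (SE 0.24), with overlapping groups, in non-malignant cells. It was at means of 0.874 and 0.715 CPM and did not pass the threshold by limma.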

How the data were processed

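Single-cell RNA was measured in 4 mice, each with malignant and non-malignant cells. Cell Ranger 3.0.2, Seurat 3.0.2 and mm10 are named in the submitters' processing notes, and the other steps are not given in the sources used here. The deposited values were natural log values, ln(1 + UMIs per 10000 UMIs of a cell), and the deposited cell table gave UMI counts per cell and the cell names. The percent of mitochondrial UMIs was computed from the recovered UMIs of genes whose symbols start with mt-. All values above 0 came back as whole UMI counts within 0.01 UMI, and their sums equalled the deposited counts in 18963 of 18963 malignant and 12648 of 12648 non-malignant cells. One vehicle library is numbered 3 in the cell names and was taken as vehicle replicate 2 from the deposited cell table.

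Per mouse and population, CPM was averaged over cells. Genes passing edgeR's expression filter were tested on log2(CPM + 1) with limma 3.58.1 (trended empirical Bayes, R 4.3.3), with Benjamini-Hochberg adjustment over all of them and a threshold of 0.05. This scale understates changes of low genes. Populations with at least 20 cells in every mouse were tested. An exact permutation test of 2 against 2 mice cannot go below 0.333 and was not used. The p-values measure the spread between these mice, which the labels name only by group and number. Alternatives were edgeR 4.0.16 and DESeq2 1.42.0 on recovered UMIs, other pseudocounts, no filter, a replicate block, leaving out each mouse, and leaving out cells marked as doublets (4.44% of 31611, by scanpy 1.11.5; 6.96% of malignant cells) or above 20% mitochondrial UMIs (1.05%). Doublets were kept otherwise. The tests were run on simulated data with changes larger than most of those reported here. Their power and error at the reported sizes were not assessed.

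The members, the lists and the tests were chosen with earlier results of these data known. Named in full were 13 members in both compartments. Beyond these, of members at 20 CPM or more, the text names the 3 highest and 3 lowest log2 differences in each compartment, and both ends of the list in each type. Any member past the threshold, and the highest and lowest of the further chaperones by the same minimum, were named too. Hspb7 was added after its values were seen. Promoter windows are from RefSeq on GRCm38.p6.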

Additional observations from a re-analysis of the deposited data

How the results depend on the processing

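Of 612 alternative values of 51 named log2 differences, 582 kept their direction and side of the threshold, 7 passed the threshold and 23 turned direction. The cause was not tested. In malignant cells Hspa1a was at 0.048 without doublets. Dnajc7, near 0, was at 0.029 by edgeR, 0.035 by DESeq2 and 0.0066 without cells of high mitochondrial share. The other turns came with 1 mouse left out, and the ranges were -0.056 to 0.056 for Dnajc7, -0.046 to 0.29 for Hspe1 and -0.047 to 0.077 for Bag1 in malignant cells. In non-malignant cells they were -0.30 to 0.48 for Hspa1a, -0.044 to 0.28 for Hspd1, -0.047 to 0.12 for Hspe1, -0.13 to 0.38 for Cryab, -0.043 to 0.092 for Dnajb1 and -0.12 to 0.0095 for Cct4. In the types they were -0.72 to 0.15 for Hspb8 in the cells named Epithelial, -0.073 to 1.10 for Fkbp4 in Fibroblast cells, -0.43 to 0.036 for Hsf1 in NK cells, -0.67 to 0.14 for Hspa1a in M2 and -0.11 to 1.53 for Hspa1a in Highly proliferative M2.

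The number of members called was 0 and became 1 by DESeq2 in malignant cells. With 1 mouse left out it ranged from 0 to 4 in the cells named Epithelial, 0 to 3 in Fibroblast cells, 0 to 2 in the cells named Microglia, in M1 and in Highly proliferative M2, and 0 to 1 in Osteoclasts. Over all genes these fits called 0 to 462 in Fibroblast cells, 1 to 72 in the cells named Microglia, 0 to 224 in M1, 0 to 256 in Highly proliferative M2 and 0 to 6 in Osteoclasts. The count of members above 0 ranged from 25 to 34 in malignant and 21 to 35 in non-malignant cells. Over all genes, DESeq2 called 45 in malignant cells, 30 in non-malignant cells, 20 in macrophages, 42 in M1 and 24 for the interaction, each with 0 by limma and edgeR. In the cells named Epithelial, where limma called 48, edgeR called 0, DESeq2 15, and 3 to 341 passed with 1 mouse left out. In NK cells limma and DESeq2 called 7, edgeR 17, limma 0 without doublets, and 12 to 142 passed with 1 mouse left out.

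Same-numbered mice did not deviate together (r = -0.363 in malignant cells, -0.155 in the cells named Microglia and between -0.0793 and 0.0608 elsewhere), so the numbers were not taken as pairs. A single correlation over genes per population cannot exclude a shared batch. With the replicate block 0 members were called in every population, and over all genes 0 in malignant cells, 2 in non-malignant cells, 85 in the cells named Epithelial, 57 in T cells and 23 in NK cells. With the pairing crossed, which was chosen after seeing the data, 0 genes were called in malignant cells and 40, with 1 member, in the cells named Microglia. With 2 mice a group, small differences were not detectable, and larger ones could also go uncalled. Hspa1b in Osteoclasts, at a log2 difference of -2.06, was not called by limma. The rarer types are further limited by 28 to 152 cells per mouse.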

Other observations

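Populations with under 20 cells in a mouse were not tested, and their values are given without comparison between the groups. In Dendritic cells, 10 to 21 per mouse, Hsf2 was at 74.7 and 115 CPM with vehicle and 78.9 and 81.0 CPM with digoxin, on 75 UMIs in all. Dnajb6 was at 254 and 321 CPM with vehicle and 321 and 258 CPM with digoxin in the same cells.

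In Neutrophil cells, 5 to 34 per mouse, Hspa1a was at 7.21 and 0 CPM with vehicle and 65.6 and 717 CPM with digoxin, on 174 UMIs in all. Cryab was at 9.25 and 0 CPM with vehicle and 189 and 83.6 CPM with digoxin there, on 91 UMIs.

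Cells named Unknown, 30 in number, were found in vehicle replicate 2 alone. They had 109 CPM of Hspa1a, 28.9 CPM of Hspa1b, 66.9 CPM of Dnajb1 and 40.7 CPM of Cryab. Their levels of the mitochondrial chaperonin were 1309 CPM of Hspd1 and 1129 CPM of Hspe1, above every value of the 8 populations ranked in the text. They also had 295 CPM of Hspb1, on 447 UMIs, within the range of the cells named Epithelial.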
